A study of Mus musculus with 12 samples.

Results

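The β-defensin (Defb), lipocalin (Lcn), Kazal-type serine protease inhibitor (Spink), cystatin (Cst), cysteine-rich secretory protein (Crisp) and whey acidic protein four-disulfide core (Wfdc) gene families were examined in RNA sequenced from epididymal fat (EWAT) of WT and MED13cTg mice. Members were selected on 2 criteria, a numbered symbol of one of these 6 families in the tables of both tissues, and an average over the 6 EWAT libraries of 1 FPKM or more. FPKM corrects the fragment number of each gene for transcript length and for how many fragments were mapped. Of 23042 gene entries, 94 carried such a symbol, and 74 of them passed: 35 of 42 Defb, 9 of 12 Lcn, 8 of 12 Spink, 6 of 9 Cst, 3 of 4 Crisp and 13 of 15 Wfdc symbols. The level in EWAT chose the members, so that level is given as a description, with no test.

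The animals were male C57BL/6 littermates, 6 weeks of age, kept on normal chow, with tissue taken in the late afternoon from ad libitum fed mice. WT mice were the wild type controls. The other genotype, MED13 cardiac transgenic (MED13cTg), overexpressed in the heart MED13, a subunit of the Mediator kinase module; the promoter that drives the transgene is not given in the sources used here. There were 12 libraries, 3 of each genotype from fat and 3 from heart ventricles. The paper says that its legends give the number of animals, and those for the RNA sequencing of both tissues give n = 3. Nothing states that fat and ventricles came from the same animals. The p-values measure the spread between these libraries only. Med13 was 13.1, 10.6 and 11.5 FPKM in WT ventricles and 263, 181 and 204 FPKM in MED13cTg ventricles, and in EWAT it was 9.43 to 10.9 FPKM in WT and 7.84 to 11.0 FPKM in MED13cTg.

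The epididymis is the long coiled duct in which sperm mature after leaving the testis, and the epididymal fat pad lies against it. Its epithelium secretes a different mixture of proteins in each successive region, the initial segment, caput, corpus and cauda. β-Defensins are small cationic peptides, known as antimicrobial agents and, in this duct, as part of the sperm coat. Lipocalins carry small hydrophobic ligands, cystatins inhibit cysteine proteases, Spink and many Wfdc proteins inhibit serine proteases, and Crisp proteins bind to sperm. Among the members, Lcn8, Lcn9, Cst8 and Cst11 are known from the initial segment. Lcn5, Lcn6, Lcn12, Lcn13 and Defb41 are known from the caput, and Crisp1 is best known from the corpus and cauda. Other members are known from other places, instead of the epididymis or beside it. Crisp2 and Spink2 are known from developing sperm, and Cst9 (testatin) and Cst13 (cystatin T) from the testis. Lcn2 is known from neutrophils and adipocytes among other cells, and Cst3 (cystatin C) from nearly every tissue.

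The 250 bases before the transcription start are shown for 1 member each known from the initial segment, the caput, and the corpus and cauda; Lcn8 and Lcn5 followed the same libraries and Crisp1 did not, as described further on. The sequences are from RefSeq on GRCm38.p6 and read 5′ to 3′ on the strand of the gene, for Lcn8 at chr2:25652868-25653117 (plus strand), Lcn5 at chr2:25657702-25657951 (plus strand) and Crisp1 at chr17:40319208-40319457 (minus strand). Capitals mark the letters TATAA, sought on the strand of the gene in the last 50 bases.
Lcn8: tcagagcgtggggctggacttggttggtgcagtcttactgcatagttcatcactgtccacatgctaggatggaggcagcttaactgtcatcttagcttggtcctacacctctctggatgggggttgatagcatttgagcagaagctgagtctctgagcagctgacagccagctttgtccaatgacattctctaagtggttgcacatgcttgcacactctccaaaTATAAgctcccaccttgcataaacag
Lcn5: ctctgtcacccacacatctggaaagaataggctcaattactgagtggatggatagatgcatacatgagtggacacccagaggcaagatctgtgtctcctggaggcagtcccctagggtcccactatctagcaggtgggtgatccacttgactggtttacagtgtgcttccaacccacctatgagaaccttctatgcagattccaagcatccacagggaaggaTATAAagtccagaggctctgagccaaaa
Crisp1: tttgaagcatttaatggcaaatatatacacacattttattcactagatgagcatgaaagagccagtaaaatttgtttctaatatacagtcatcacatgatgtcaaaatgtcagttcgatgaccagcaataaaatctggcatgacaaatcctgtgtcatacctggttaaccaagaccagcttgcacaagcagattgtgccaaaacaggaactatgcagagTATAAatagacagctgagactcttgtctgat
All 3 held the letters once, beginning 26, 28 and 31 bases before the start in Lcn8, Lcn5 and Crisp1. Of the 32851 promoters in the same table, 1618 (4.93%) held them in that window. The 3 genes were picked by region, the search for these letters was not planned, and the share among the other members is not given. The 3 matches therefore do not show that the members differ from other genes. A match is a description of the sequence and does not show a bound site.

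In the mm9 coordinates of the tables, most members lay next to others of their family. When members less than 1000000 bases apart were joined, 9 clusters of at least 3 members held 65 of the 74. The largest was the Wfdc cluster on chromosome 2 (164024607 to 164571378), with 12 members. The same chromosome held 11 Defb members at 152284790 to 152460927, 8 Lcn members at 25346364 to 25681057 and 6 Cst members at 148594353 to 148701204. Chromosome 8 held a group of 9 Defb members (18974939 to 19295339) and another of 8 (22887026 to 23059094). Such neighbours are related in sequence, and 7 members (Defb25, Spink10, Spink13, Wfdc6b, Wfdc8, Wfdc9 and Wfdc10) had an entry whose interval overlapped that of another, so their values are uncertain. Defb41 shared its entry with Gm15386.

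In WT fat the members summed to a large share of the library. Their level together was 156000, 147505 and 186862 FPKM in WT replicates 1, 2 and 3, which was 17.5, 16.0 and 18.9% of all FPKM of the library. In MED13cTg replicates 1, 2 and 3 it was 31276, 2769 and 137506 FPKM, or 4.37, 0.393 and 16.2%. The WT libraries were therefore alike, MED13cTg replicate 3 lay just below them on the FPKM scale, replicate 1 was well below, and replicate 2 was lowest. Of the 50 genes with the highest FPKM in a library, 18, 20 and 19 were members in the WT libraries and 10, 1 and 17 in MED13cTg replicates 1, 2 and 3. The single member in the top 50 of MED13cTg replicate 2 was Cst3. Without Cst3 and Wfdc1, which were as high in ventricles as in fat, MED13cTg replicate 2 had a sum of 457 FPKM, 0.284% of the WT mean of 160941 ± 20512 FPKM (SD, n = 3). In bulk tissue, fewer cells of a type and less RNA per cell cannot be told apart.

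**Figure D1:**
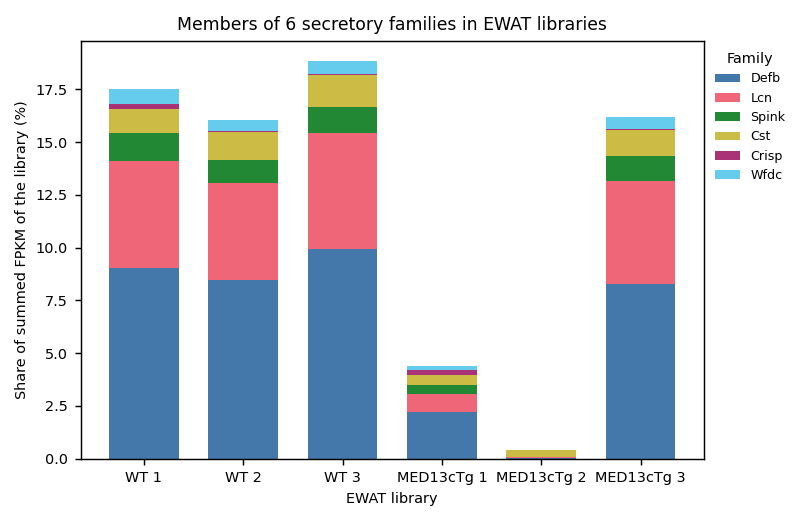
Bars show the summed FPKM of the 74 members as a percentage of all FPKM in each of the 6 EWAT libraries, stacked by family, starting at 0. The WT libraries reach 16.0 to 18.9%, MED13cTg replicate 3 reaches 16.2%, and replicates 1 and 2 reach 4.37 and 0.393%.

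The Defb and Lcn families carried most of this signal. In the order WT replicates 1 to 3 and then MED13cTg replicates 1 to 3, an order kept throughout, the 35 Defb members summed to 80380, 77867, 98509, 15713, 199.6 and 70452 FPKM. The 9 Lcn members summed to 45104, 42026, 54561, 6206, 158 and 41346 FPKM. Both families thus had the same order of libraries, with MED13cTg replicate 2 at 0.233% of the WT mean for Defb and 0.335% for Lcn. The Spink, Wfdc and Cst sums were 26.3, 22.9 and 26.8% of their WT means in MED13cTg replicate 1. The Crisp family stood apart, with sums of 1891, 248, 409.8, 1672, 3.25 and 330.0 FPKM, high in replicate 1 of both genotypes. These highs came mainly from different genes, Crisp1 in WT replicate 1 (1706 FPKM) and Crisp2 in MED13cTg replicate 1 (1259 FPKM).

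Lcn8, a lipocalin of the initial segment, was the highest member, and it ranked 2, 3 and 2 among all genes in the WT libraries. Its level was 21279.5, 20004 and 26782 FPKM in WT mice, against 2840.5, 63.2 and 18557 FPKM in MED13cTg. All MED13cTg values were below all WT values, with replicate 3 close to WT and replicate 2 lower by orders of magnitude. Lcn5, the caput lipocalin that binds retinoids, was 8750, 8325 and 9652 FPKM in WT mice, against 1244, 31.8 and 9609 FPKM in MED13cTg. Here MED13cTg replicate 3 lay inside the WT range, so the genotypes overlapped. Defb25 was the highest β-defensin, with 13174, 13122 and 16873 FPKM in WT mice, against 1738, 33.2 and 11365 FPKM in MED13cTg, without overlap. Defb41, a caput β-defensin, was 8918, 9993 and 11147 FPKM in WT mice, against 2018, 18.2 and 9017 FPKM in MED13cTg. MED13cTg replicates 1 and 2 were again far below WT, while replicate 3 lay just above WT replicate 1.

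The highest members of the protease inhibitor families followed the same libraries. Cst11, a cystatin of the initial segment, was 5303, 6735 and 8015 FPKM in WT mice, against 988, 15.8 and 6159 FPKM in MED13cTg. Spink8 was 8368, 6390.0 and 7871 FPKM in WT mice, against 1484, 43.1 and 6129.8 FPKM in MED13cTg. Wfdc10 was 4136, 3750.5 and 4866 FPKM in WT mice, against 616, 11.2 and 3446 FPKM in MED13cTg. In each of these genes MED13cTg replicate 2 was lowest and replicate 1 next. Crisp4, an epididymal member of its family, was 170.1, 178 and 209 FPKM in WT mice, against 29.0, 0.610 and 165 FPKM in MED13cTg, again with the same order of the MED13cTg libraries.

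Further members of the proximal epididymis had the same course. Lcn9, a lipocalin of the initial segment, was 5537, 5166 and 6019 FPKM in WT mice, against 851, 13.2 and 4483 FPKM in MED13cTg. Cst8, the cystatin-related epididymal spermatogenic protein, was 2134, 2568 and 3385 FPKM in WT mice, against 479.9, 7.35 and 2066 FPKM in MED13cTg. Both had every MED13cTg library under every WT library, with replicate 3 nearest to WT. Lcn6, of the caput, was 2871, 2758 and 4337 FPKM in WT mice, against 384, 11.2 and 2783 FPKM in MED13cTg. Lcn12, also of the caput, was 447, 486 and 570.3 FPKM in WT mice, against 78.5, 1.60 and 438 FPKM in MED13cTg. Lcn6 overlapped WT through MED13cTg replicate 3 and Lcn12 did not. Among β-defensins, Defb20 was 9041, 9674 and 13002 FPKM in WT mice, against 1367, 30.3 and 8217 FPKM in MED13cTg. Defb15 was 7295, 9304 and 10648 FPKM in WT mice, against 1727, 14.0 and 8095 FPKM in MED13cTg. Defb20 did not overlap between genotypes, and in Defb15 MED13cTg replicate 3 lay above WT replicate 1.

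Lower members differed in how far MED13cTg replicate 1 fell behind. Spink5, an inhibitor best known from the skin barrier, was 76.4, 71.3 and 95.1 FPKM in WT mice, against 13.0, 0.307 and 76.5 FPKM in MED13cTg. Spink12 was 727, 810.3 and 796 FPKM in WT mice, against 130.2, 2.03 and 797 FPKM in MED13cTg. In both, MED13cTg replicate 1 was below every WT library by a wide margin and replicate 3 was within the WT range. Cst12, a cystatin of the reproductive tract, was 637, 474 and 761 FPKM in WT mice, against 466, 2.08 and 429 FPKM in MED13cTg. In Cst12 MED13cTg replicate 1 was above replicate 3 and close to the lowest WT library, while replicate 2 was as low as in the other members. Wfdc15b was 721, 316 and 434 FPKM in WT mice, against 148, 1.62 and 341 FPKM in MED13cTg, and its highest level was in WT replicate 1.

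Across all 74 members, the median ratio to the WT mean was 0.207 in MED13cTg replicate 1, 0.00283 in replicate 2 and 0.836 in replicate 3. The same median over all 14967 genes tested in EWAT was 0.914, 0.930 and 0.978. MED13cTg replicate 2 was below every WT library in 72 of 74 members, against 45.7% of all genes tested, and 17 members were listed at 0 in it. MED13cTg replicate 1 was below every WT library in 54 members and above every WT library in 10, against 48.2 and 44.1% of all genes. MED13cTg replicate 3 was below in 22, within the WT range in 44 and above in 8. Of all genes tested, 23.3% were below every WT library in it and 20.9% above. Members share each library and are not replicates, so these counts describe 3 libraries.

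**Figure D2:**
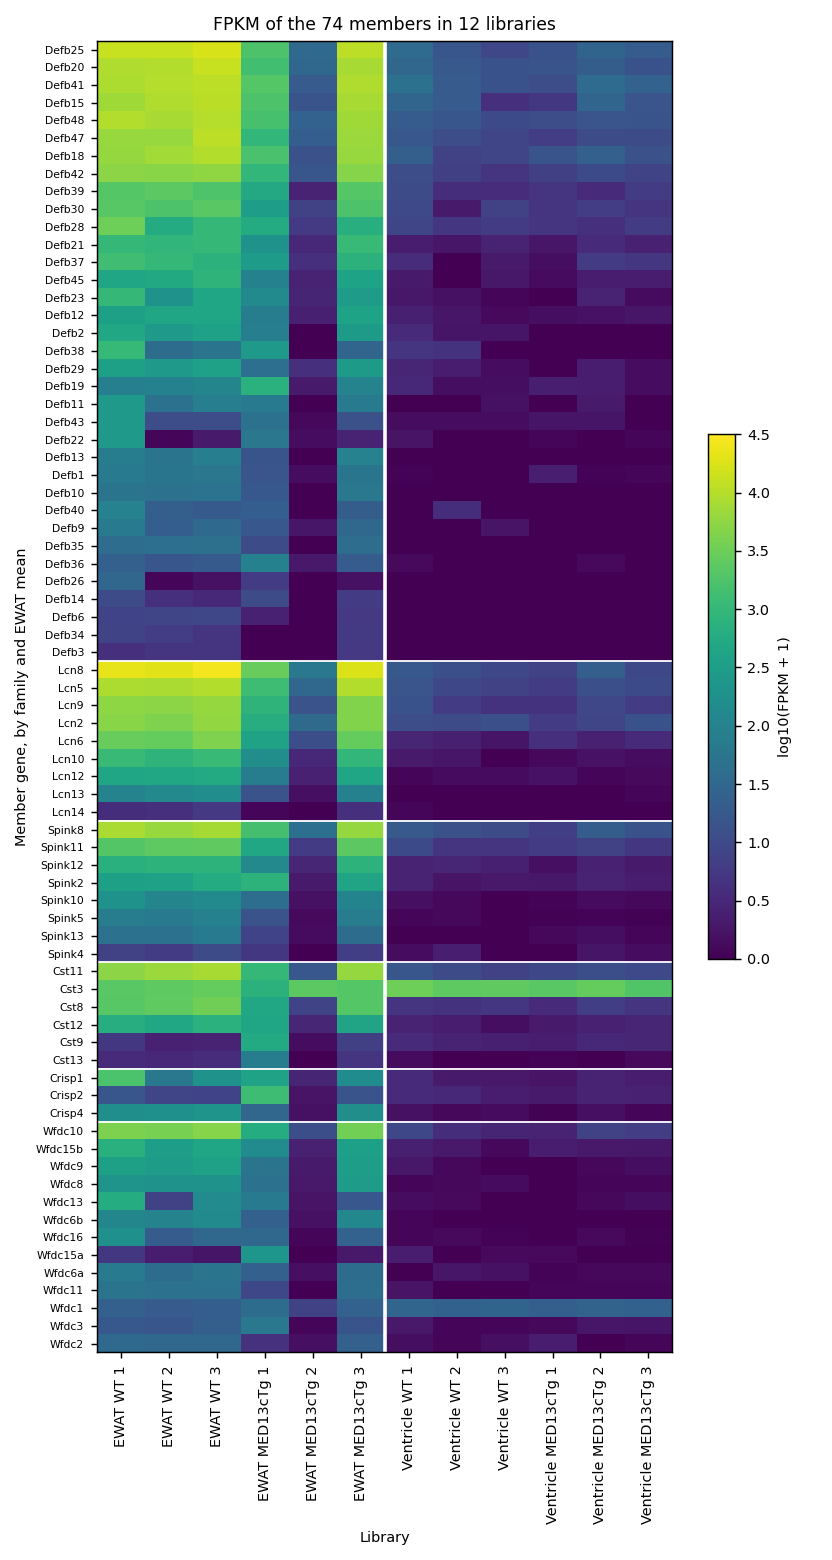
Colour gives log10(FPKM + 1) of the 74 members (rows, by family and then EWAT mean) in 6 EWAT and 6 ventricle libraries (columns). In EWAT, MED13cTg replicate 2 is dark except for Cst3 at 2305 FPKM, with other rows faint, and replicate 1 is intermediate for most rows. In the ventricle columns Cst3 is bright, and 10 members average at least 10 FPKM.

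Whether the genotypes differed was tested on the log2(FPKM + 1) scale with limma, for the 14967 genes that averaged 1 FPKM or more, with Benjamini-Hochberg adjustment over all of them. No member passed an adjusted p of 0.05, and 2 genes of all those tested did (0.0134%). The adjusted p of the members lay between 0.738 and 0.944. At an unadjusted p under 0.05 there were 2 members, Wfdc2 (known as HE4 from the human epididymis) and Defb6, against 1.25% of all genes. The median log2 fold change of the members, MED13cTg over WT, was -2.87 with a median standard error of 1.82, beside 0.01 and 0.45 over all genes tested. It was -1.11 without MED13cTg replicate 2 and -4.26 without replicate 3. The log2 fold change was below 0 in 70 members and above 0 in 4, and 49.3% of all genes were below 0. All 74 members also reached 1 FPKM in the WT mean alone and in the MED13cTg mean alone, so no member entered through a single genotype.

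Lcn8 had a log2 fold change of -3.91 ± 2.07 (SE, n = 3 against 3; limma adjusted p = 0.738). For Lcn5 it was -3.60 ± 2.04 with the same adjusted p. Without MED13cTg replicate 2 the log2 fold changes of Lcn8 and Lcn5 were -1.63 and -1.36, and without replicate 3 they were -5.72 and -5.46. Neither difference held up against the spread between replicates, which was wide among the MED13cTg libraries. In 19 members all 3 MED13cTg values were under all 3 WT values, and in none were all 3 above. Over all genes tested these shares were 7.8 and 4.88%. The 19 were Lcn8, Lcn9, Lcn12, Lcn13, Defb6, Defb20, Defb25, Defb42, Defb45, Defb48, Spink8, Spink10, Spink13, Cst8, Cst12, Crisp4, Wfdc2, Wfdc10 and Wfdc11. Without MED13cTg replicate 3, the log2 difference had an unadjusted p under 0.05 in 45 of 74 members and in 16.1% of all genes tested in that fit, and the smallest adjusted p was 0.103. With MED13cTg replicates 1 and 2 both left out, the median log2 fold change of the members was -0.22. In the fit with replicate number as a block, 0 members passed the adjusted threshold and 9 had an unadjusted p under 0.05, against 1.98% of all genes in that fit.

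Other epididymal genes and markers of epithelium were low in the same libraries as the members, whereas adipocyte markers were highest in MED13cTg replicate 2. The 10 measured epididymal genes outside the families, Gpx5 and Adam7 among them, summed to 56099, 53954, 67708, 8573, 156 and 57604 FPKM. Epcam, Cdh1, Krt8, Krt18 and Krt19, markers of epithelium, summed to 1027, 805, 997, 154, 42.2 and 843 FPKM, lowest in MED13cTg replicate 2 and next lowest in replicate 1. The 10 adipocyte markers measured, Adipoq and Fabp4 among them, summed to 13999, 33767, 23248, 1340.0, 85085 and 18467 FPKM. MED13cTg replicate 2 was thus highest and replicate 1 lowest for adipocyte genes, and replicate 3 lay within the WT range. No gene of these 3 lists passed the adjusted threshold, and the part of tissue make-up in the member levels was not tested.

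Caput and initial segment genes kept a similar ratio to each other within a library, unlike Crisp1. The initial segment list (Lcn8, Lcn9, Cst8 and Cst11) summed to 34254, 34472, 44201, 5160, 99.6 and 31265 FPKM. The caput list (Lcn5, Lcn6, Lcn12, Lcn13 and Defb41) summed to 21088, 21692, 25869, 3738, 63.3 and 21942 FPKM. Caput over initial segment was therefore 0.616, 0.629 and 0.585 in WT and 0.724, 0.636 and 0.702 in MED13cTg, a narrow range beside that of the sums. All 3 MED13cTg ratios lay above all 3 WT ratios, but 0.636 in MED13cTg replicate 2 was close to 0.629 in WT replicate 2. The ratio was not tested. The rank order of the 74 members was also similar between most libraries. Spearman correlations across members, which are not independent, were 0.987 between WT replicates 2 and 3 and 0.995 between WT replicate 2 and MED13cTg replicate 3. The lowest, 0.749, was between WT replicate 2 and MED13cTg replicate 1.

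Crisp1, the member known from the corpus and cauda, did not follow the caput genes. Its level was 1706, 62.5 and 193 FPKM in WT mice, against 383, 1.94 and 151 FPKM in MED13cTg. WT replicate 1 was far above the other WT libraries, and MED13cTg replicate 1 was above MED13cTg replicate 3, although its Lcn5 was lower. Crisp1 was 8.09, 0.288 and 0.747% of the caput sum in WT and 10.3, 3.07 and 0.689% in MED13cTg. The share in MED13cTg replicate 2 rests on 1.94 FPKM, within the 0.727 to 2.52 FPKM that ventricle libraries listed for Crisp1, so it is uncertain.

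With Crisp1, a set of 12 members was at least 3-fold higher in WT replicate 1 than in WT replicates 2 and 3; 2.51% of all genes tested met this criterion, which was chosen after the values were seen. The 12 were Crisp1, Defb11, Defb14, Defb22, Defb26, Defb28, Defb38, Defb40, Defb43, Wfdc13, Wfdc15a and Wfdc16. Defb22, a β-defensin of the sperm coat, was 268, 0.215 and 1.10 FPKM in WT mice, against 59.4, 0.390 and 1.84 FPKM in MED13cTg. Wfdc13 was 604, 6.80 and 146 FPKM in WT mice, against 73.7, 0.755 and 15.7 FPKM in MED13cTg. Defb38 was 1023, 37.2 and 52.2 FPKM in WT mice, against 256 and 28.1 FPKM in MED13cTg replicates 1 and 3, and was listed at 0 in replicate 2. In all 3 genes replicate 1 of each genotype was the high one. The 3-fold criterion used WT values only but was chosen with the MED13cTg values also seen, so the MED13cTg libraries are no independent check. In them, replicate 1 was above replicate 3 in 11 of the 12, with a median ratio of 3.30. Of the 12, Defb14 and Wfdc15a were also in the second set below, which was chosen for a high MED13cTg replicate 1. Among the 62 members outside the set of 12, replicate 1 was above replicate 3 in 9, and the median ratio was 0.202. Akr1b7, a gene known from the vas deferens, was 10.4, 0.216 and 1.38 FPKM in WT mice, against 3.21, 0 and 0.174 FPKM in MED13cTg, so it was highest in the same libraries. It was the only gene examined for that tissue, and its levels were low.

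A second set, also chosen after the values were seen, held the 10 members that were higher in MED13cTg replicate 1 than in every WT library. Over all genes tested, 44.1% met this criterion, a larger share than among the members. Crisp2, a protein of the sperm acrosome and tail, was 15.0, 7.68 and 7.17 FPKM in WT mice, against 1259, 0.693 and 13.6 FPKM in MED13cTg. Cst9 was 4.37, 1.58 and 1.77 FPKM in WT mice, against 553, 0.435 and 6.14 FPKM in MED13cTg. Spink2, an acrosomal protease inhibitor, was 361, 382 and 597 FPKM in WT mice, against 824, 1.07 and 424 FPKM in MED13cTg. In Crisp2 and Cst9 a single library, MED13cTg replicate 1, was high. Spink2 was also high in the WT libraries and in MED13cTg replicate 3. In each of these genes MED13cTg replicate 2 was the lowest of all. The others were Cst13, Defb14, Defb19, Defb36, Wfdc1, Wfdc3 and Wfdc15a, of which Defb19, known from the testis, was 87.7, 93.6 and 112 FPKM in WT mice, against 736, 1.15 and 102 FPKM in MED13cTg. Genes of testicular germ cells (Prm1, Prm2, Tnp1, Tnp2, Odf1, Smcp and Akap4) summed to 213, 228 and 303 FPKM in WT mice, against 13638, 5.83 and 344 FPKM in MED13cTg, with the same library high. Their part in the second set was not tested. The log2 fold change of Crisp2 was 1.59 ± 2.36 (SE, limma adjusted p = 0.798) and became -1.07 without MED13cTg replicate 1. For Cst9 it was 2.40 ± 2.17 (adjusted p = 0.738) and became -0.08 without that library.

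The log2 ratio of WT replicates 1 and 2 and that of MED13cTg replicates 1 and 3 come from different libraries. Across the 72 members with values in all 4 libraries, Pearson's r between these ratios was 0.57 and Spearman's rho 0.58. These are descriptions across genes, which share their libraries, so no p is given.

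**Figure D3:**
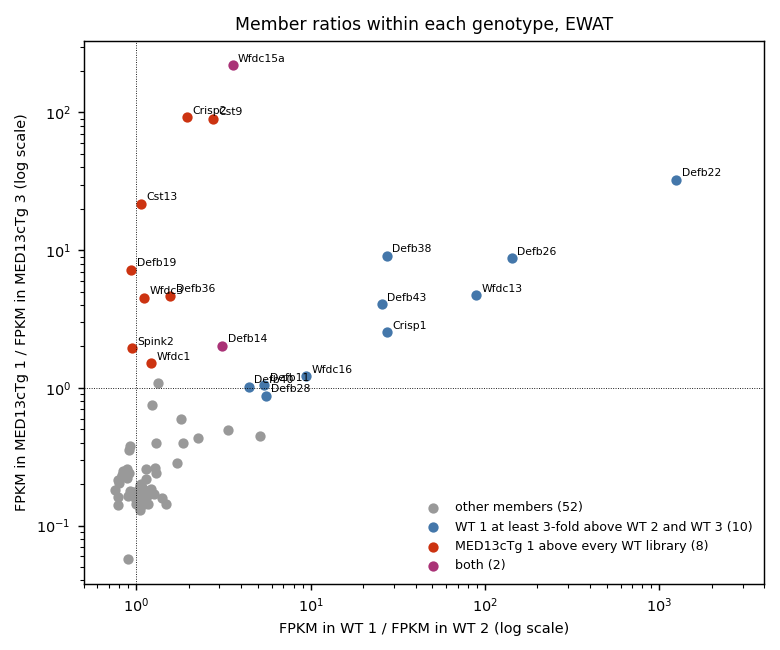
Each point is 1 of 72 members in EWAT, with its FPKM in WT replicate 1 over WT replicate 2 on the x axis and in MED13cTg replicate 1 over MED13cTg replicate 3 on the y axis, both on log scales. Most grey members sit near 1 on the x axis and below 1 on the y axis, Defb22 and Wfdc13 are high on both axes, and Crisp2 and Cst9 are high mainly on the y axis.

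Members with a known source outside the epididymis were not all alike. Lcn2 binds bacterial iron carriers and is made by neutrophils and adipocytes among other cells. It was 5043, 4311 and 5896 FPKM in WT mice, against 629, 34.3 and 4415 FPKM in MED13cTg. It was therefore lowest in MED13cTg replicate 2, the library with the highest adipocyte genes, and followed Lcn5 and Lcn8. Cst3 was 2269, 2461 and 2751 FPKM in WT mice, against 781, 2305 and 2061 FPKM in MED13cTg, so that MED13cTg replicate 2 was within the WT range and replicate 1 was lowest. Wfdc1, a protein of stromal cells, was 23.1, 18.9 and 21.0 FPKM in WT mice, against 38.1, 6.75 and 25.2 FPKM in MED13cTg. Cst3 and Wfdc1 differed from the rest in having MED13cTg replicate 2 at 0.925 and 0.322 of the WT mean.

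**Figure D4:**
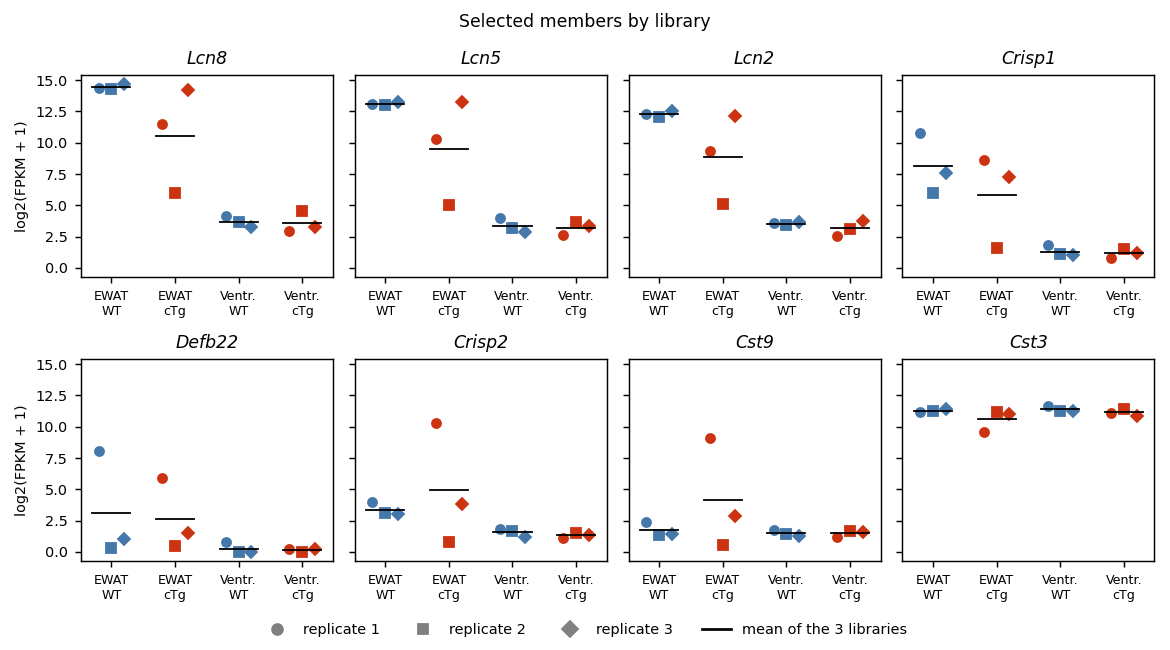
Points give log2(FPKM + 1) of 8 members in single libraries, with the replicate number as the symbol and the group mean as a line, for EWAT and ventricles of WT (blue) and MED13cTg (cTg, red) mice. Lcn8, Lcn5 and Lcn2 fall in MED13cTg EWAT replicates 1 and 2, Crisp1 and Defb22 are high in replicate 1 of both genotypes, Crisp2 and Cst9 are high in MED13cTg replicate 1, and Cst3 is near 2490 FPKM on average in ventricles.

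In ventricles the members were low beside their level in WT fat, apart from Cst3 and Wfdc1. The 2 tables were made separately, so levels are set side by side without a test. Cst3 averaged 2490.0 FPKM over the 6 ventricle libraries and Wfdc1 25.5 FPKM, against 2494 ± 242 and 21.0 ± 2.07 FPKM (SD, n = 3) in WT fat. The other 72 members summed to 388, 211 and 154 FPKM in WT ventricles and 153, 315 and 227 FPKM in MED13cTg ventricles, with no separation of the genotypes. Their median ventricle mean was 0.182% of the WT fat mean, and the highest was Defb41 at 25.2 FPKM. All 6 ventricle libraries listed 0 for 8 members, Defb3, Defb6, Defb10, Defb13, Defb14, Defb26, Defb34 and Defb35.

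The low ventricle levels followed the order of levels in fat. Spearman's rho between the ventricle mean and the WT EWAT mean was 0.84 across the 72 members, a description across genes with no p. Gpx5, the epididymal glutathione peroxidase, was 29.3, 17.0 and 11.6 FPKM in WT ventricles and 10.9, 25.7 and 18.2 FPKM in MED13cTg ventricles, which is the same order of the 6 libraries as the sum of the members. The epithelial markers summed to between 1.81 and 2.89 FPKM there. Crisp2 and Cst9 were nearer to their WT fat level, at 17.9 and 72.8% of it. In ventricles 33 members reached a mean of 1 FPKM and were tested among 12589 genes, of which 0.0556% passed the adjusted threshold. No member passed, 1 had an unadjusted p under 0.05 (Defb38), and the adjusted p of the members lay between 0.966 and 1.00. Defb38 was 3.90 and 3.50 FPKM in WT replicates 1 and 2 and listed at 0 in WT replicate 3 and in all MED13cTg ventricles. Without WT replicate 3 it passed, with a limma adjusted p of 0.0137 and a log2 fold change of -2.23.

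**Figure D5:**
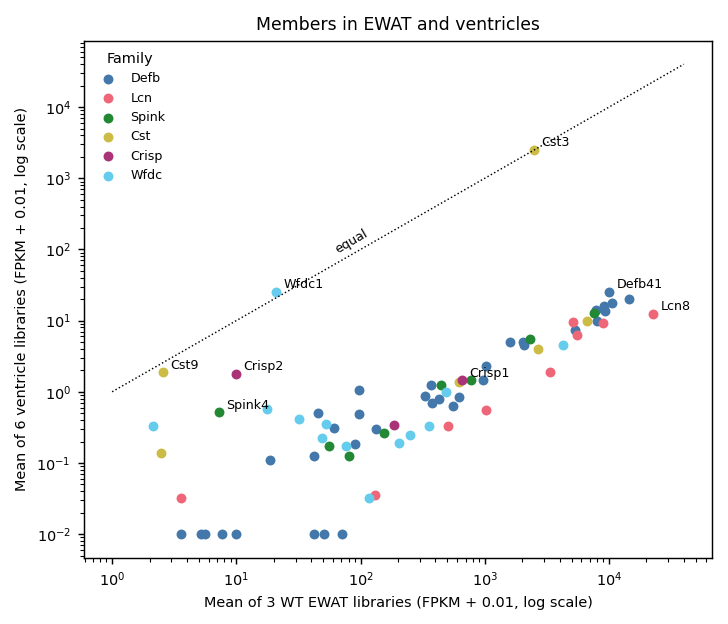
Each point is 1 of the 74 members, with its mean over the 3 WT EWAT libraries on the x axis and over the 6 ventricle libraries on the y axis, both as FPKM + 0.01 on log scales and coloured by family. Cst3 and Wfdc1 lie on the dotted line of equality, and the other members lie below it with a median of 0.182% of the WT fat level.

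The members closest to the threshold were Lcn14 (named Obp2b in RefSeq), Defb3 and Defb34, with EWAT means of 2.33, 2.53 and 3.63 FPKM. Just outside were Cst6, Wfdc12 and Defb50, at 0.850, 0.792 and 0.704 FPKM. No family symbol lay between 0.850 and 2.33 FPKM.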

How the data were processed

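The authors aligned the reads with TopHat to mm9 and estimated FPKM with Cufflinks at default settings; versions are not given in the sources used here. They deposited 1 table of FPKM per tissue, with their own genotype means and folds, which were not used; 1 unnamed column of values was left out. Absolute depth is unknown. From values under 0.15 FPKM, relative fragment numbers were 0.680 to 1 in EWAT, lowest in MED13cTg replicates 1 and 2, so low values there are least precise, and 0.919 to 1.03 in ventricles.

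Libraries were grouped by the labels. Genotypes were compared within each tissue with limma 3.58.1 (R 4.3.3; lmFit, eBayes with trend) on log2(FPKM + 1), two-sided, for genes averaging 1 FPKM or more over the tissue, with Benjamini-Hochberg adjustment over all genes tested and a threshold of 0.05. The pseudocount understates changes of low genes. The steps were tested on simulated data in which both genotypes had the spread of the WT libraries. Members spread far more among the MED13cTg EWAT libraries, so the simulation does not show how the fit behaves for them. Other values came from Python 3.11.15, pandas 2.3.3 and scipy 1.17.1, and plots from matplotlib 3.10.9.

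Members and lists were chosen with earlier results of these data known. The text names the 6 highest members of each family, any member past the threshold and up to 10 members without overlap between genotypes; others were named after their values were seen. Nothing in the labels says what a replicate number marks. For libraries of the same number, correlations of deviations from the group means were 0.347, 0.304 and 0.144 in replicates 1, 2 and 3. Other pairs reached at most 0.168, so replicate 3 did not stand out, and the correlations are not independent of one another. A pairing was not established, and a fit with replicate number as a block was also made. A planned count of androgen receptor motifs in promoters was void, because 53 of 74 members (71.6%) had a promoter in the RefSeq table, under the 80% required. Alternatives were another pseudocount, filter and scaling, no trend, array weights, the block and each library left out. The 2 criteria for the sets in replicate 1 and the fit without MED13cTg replicates 1 and 2 were chosen after seeing the data. The search for TATAA was also outside the plan.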

Additional observations from a re-analysis of the deposited data

Results flagged for a closer look

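Spink13, a Kazal-type inhibitor, had differences of opposite sign in the 2 tissues, none of which was called. In EWAT all 3 MED13cTg values were under all 3 WT values, with a log2 fold change of -2.89 (limma adjusted p = 0.738). In ventricles it was below the filter and untested, listed at 0 in all 3 WT libraries and at 0.266, 0.488 and 0.223 FPKM in MED13cTg, a difference of means of 0.325 FPKM. The difference between the tissues was not tested. The entry overlaps that of Spink10, so its values are uncertain.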

How the results depend on the processing

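No EWAT member passed the adjusted threshold under the 14 planned settings or without MED13cTg replicates 1 and 2. Of 504 recomputed log2 fold changes of the 36 genes named by the rule under the planned settings, 499 kept their sign and their side of the threshold. The 5 that turned were Cst13 with array weights (-0.052), Crisp2 (-1.07), Cst9 (-0.077) and Cst13 (-0.67) without MED13cTg replicate 1, and Spink2 (0.44) without MED13cTg replicate 2. Over the fits without 1 library, these genes ranged from -1.07 to 3.70, -0.077 to 4.22, -0.67 to 2.51 and -3.88 to 0.44. Over all genes in EWAT, 2 were lower and 0 higher. The count lower was 0 with no filter, with array weights and with the replicate block, and 0 to 4 without 1 library. The count higher was 0 to 2 without 1 library, with 2 in the fit without MED13cTg replicate 1, and 17 without MED13cTg replicates 1 and 2, where the median log2 fold change of the members was -0.22 and the lone library was assumed to vary like the WT libraries. In ventricles 4 genes were lower and 3 higher. The count lower was 1 with the replicate block and 0 to 4 without 1 library, lowest without MED13cTg replicate 2, and the count higher was 3 to 6, highest without WT replicate 3. Leaving out WT replicate 3 also raised the ventricle members called to 1 (Defb38), in a range of 0 to 1. The block changed no other call. The number of members was 70 to 75 under other selections, with 70 at a mean of at least 5 FPKM. The cause of these changes was not tested. With 3 libraries per genotype and FPKM of unknown depth, levels near 1 FPKM rest on few fragments.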
